A study of Homo sapiens with 9 samples.

Results

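The proteasome subunit genes are the 48 genes whose symbols begin with PSMA to PSMG followed by a number. They are 48 of 44608 entries in each count table, and all 48 were listed in every table. RNA was sequenced from U2OS cells, a human osteosarcoma line, in 3 libraries given an siRNA against NFKB2 (siNFKB2), 3 given an siRNA against RELB (siRELB) and 3 given a non-silencing siRNA (siNS). All cells received 75 nM siRNA with a lipid reagent and were collected 48 h later, so the controls were transfected too. The sources used here give neither the siRNA sequences nor whether the replicates came from separate cultures. NFKB2 was at 5.26, 22.9 and 48.4 CPM in siNFKB2 and 80.7, 126 and 117 CPM in siNS, and RELB was at 2.66, 4.66 and 5.36 CPM in siRELB and 17.1, 30.3 and 34.1 CPM in siNS. CPM stands for counts scaled to a common library size, after edgeR's trimmed-mean (TMM) correction. The level of NFKB2 left differed widely between the siNFKB2 libraries.

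The proteasome is the protease that degrades ubiquitin-tagged proteins. Its barrel-shaped core stacks rings of alpha subunits (PSMA) around rings of beta subunits (PSMB), of which PSMB5, PSMB6 and PSMB7 cut peptide bonds. A regulatory particle of ATPases (PSMC) and non-ATPase subunits (PSMD) binds ubiquitin chains, unfolds substrates and feeds them into the core. Interferon can replace the catalytic subunits by PSMB8, PSMB9 and PSMB10, which form the immunoproteasome. PSMG proteins and a few PSMD proteins are assembly chaperones that leave the finished particle, whereas PSME proteins are alternative caps. The proteasome also trims the NFKB2 precursor into its DNA-binding form, the partner of RELB.

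Total counts lay between 15011789 and 19279572 per library, and the 48 genes together took 1.09, 1.19 and 1.14% of the counts in siNFKB2, 0.983, 1.03 and 1.03% in siRELB and 1.05, 1.15 and 1.13% in siNS. Of the 9 bone markers looked up, 6 passed the filter on low counts, whereas SP7, BGLAP and IBSP were at or near 0. Those that passed were COL1A1, SPARC, RUNX2, ALPL, SPP1 and COL1A2, the last at a mean of only 1.07 CPM in siNS. In siNFKB2 against siNS, 2 bone markers rose (ALPL and SPP1) and 3 fell (RUNX2, COL1A1 and COL1A2), where 26.1% of all genes were called. ALPL rose 4.07-fold and RUNX2 fell to 0.389 times its level in siNS. The summed level of the bone markers was 1778 to 2197 CPM in siNFKB2, 2103 to 2682 CPM in siRELB and 1878 to 2702 CPM in siNS. That sum is mostly SPARC and COL1A1 (means of 1447 and 876 CPM in siNS) and does not show the changes of the others. Of 5 blood markers only HBB passed the filter, and it was called lower in siNFKB2. CD3E was at 0, and the blood markers summed to 2.15 to 4.78 CPM in siNFKB2, 4.92 to 7.33 CPM in siRELB and 5.06 to 6.99 CPM in siNS. Of 5 epithelial markers 4 passed, while KRT19 was at or near 0. Of these 4, 1 rose and 1 fell in siNFKB2 (26.1% of all genes called) and 1 rose in siRELB (2.02%). The epithelial markers summed to 573 to 676 CPM in siNFKB2, 634 to 720.3 CPM in siRELB and 629 to 928 CPM in siNS. The part of these markers in the proteasome values was not tested. In bulk RNA, fewer cells of a kind and less RNA per cell cannot be told apart. The 3 libraries numbered 1 stood apart from the others of their groups, and counts of called proteasome and partner genes are therefore given with and without them.

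Not all 48 genes could be measured. The filter kept 40 and removed 8. PSMB3, a beta subunit of every core, PSMC4, an ATPase of every regulatory particle, PSMB8, PSMB9 and the activator gene PSME1 were listed at 0 in all 9 libraries, and PSME2 was listed at 1 to 6 counts. These 6 genes are the members that have 1 or more further placements in the tables, entries with the same symbol and a suffix (1 each for PSMB3, PSMC4, PSME1 and PSME2, and 7 each for PSMB8 and PSMB9). Their further placements were at 0 as well. Over the whole table, 2109 of 2651 symbols with a further placement (79.6%) were at 0 in every library, against 11429 of 36927 symbols with a single placement (30.95%). Since PSMB3 and PSMC4 are used by every cell, a listed 0 of these 6 genes was not read as a lack of expression, and no statement on the immunoproteasome genes PSMB8 and PSMB9 can be made. The rule by which reads with several placements were counted is not known here. The other 2 genes removed have single placements. PSMA8, a germ cell subunit, was listed at 0 throughout, and PSMB11, a thymic subunit, held at most 1 count in a library.

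PSMC1, an ATPase, passed the filter with counts of only 46 to 73 per library, although the particle holds it in equal number with the other ATPases. Its level was 0.513 ± 0.0407 CPM per kb in siNS, against 98.5 ± 3.29 CPM per kb for PSMC2. CPM per kb is the CPM divided by the merged exon length of the gene in GENCODE 29, which need not be the annotation behind the deposited counts and which takes rare long transcripts in full. In that annotation 75.8% of the exonic length of PSMC1 lies over NRDE2 on the opposite strand, and 29% of the 50-base words of its longest coding transcript occur in transcripts of other genes, PSMC1P1 first among them. The part of either in the low count was not tested, and the value of PSMC1 is uncertain.

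Among the other 39 genes, the level per length in siNS reached from 2.25 ± 0.946 CPM per kb for the assembly chaperone PSMG4 to 422 ± 76.9 CPM per kb for the alpha subunit PSMA7 (means ± SD, n = 3). The ATPase PSMC3 (263 ± 54.4 CPM per kb) and PSMD2, the large base subunit that docks ubiquitin shuttle proteins (247 ± 15.6), came next on this scale, and their spreads overlapped. The 3 constitutive catalytic genes lay close together, with PSMB5 at 147 ± 18.1, PSMB7 at 114 ± 7.63 and PSMB6 at 113 ± 20.7 CPM per kb. PSMB10, the inducible counterpart of PSMB7, was at 23.1 ± 8.86 CPM per kb. Alpha subunits, which enter the core in equal number, ranged from 22.8 ± 0.9598 CPM per kb for PSMA6 up to the value of PSMA7, with 85.6% of the 50-base words of PSMA6 shared with other genes. This range depends on the length used. The merged exons of PSMA6 and PSMA7 span 6506 and 1750 bases, against 1029 and 996 in their longest coding transcripts. Not divided by length, PSMA6 and PSMA7 had means of 148 and 739 CPM in siNS. Assembly chaperones were spread over the range. PSMD9 was at 8.73 ± 1.07, PSMG1 at 16.1 ± 1.84, PSMD10 at 19.04 ± 3.71 and PSMD5 at 20.5 ± 3.85 CPM per kb. On this scale the lid subunit PSMD6 (14.99 ± 0.801) and the ATPase PSMC6 (21.1 ± 2.66) were near, which depends on the length used. The merged exons of PSMD6 and PSMC6 span 9123 and 7482 bases, against 1495 and 2188 in their longest coding transcripts. For PSMD9, PSMG1, PSMD10 and PSMD5 the merged exons span 8774, 2515, 2459 and 4432 bases, against 2784, 2154, 1546 and 3443. PSMG3 was higher at 49.7 ± 15.7 CPM per kb, as was PSMG2, which pairs with PSMG1 to start the alpha ring, at 93.1 ± 8.07.

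**Figure D1:**
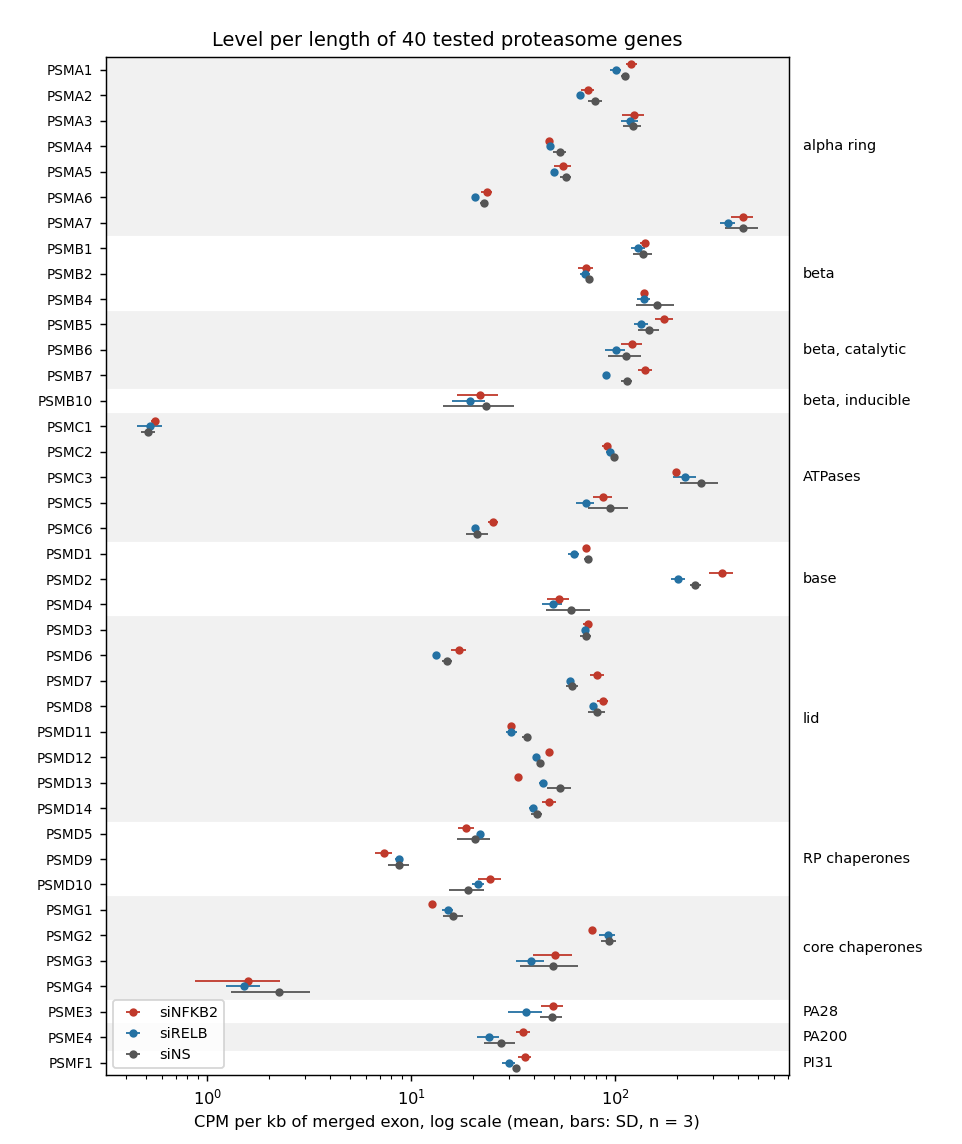
Level of 40 proteasome genes in CPM per kb of merged exon (horizontal, log scale) by role (rows; RP, regulatory particle; PA28 stands for the PSME3 activator, PA200 for PSME4 and PI31 for PSMF1). Points are means and bars SDs of 3 libraries in siNFKB2, siRELB and siNS. Levels spread far more between genes than between groups, from PSMC1 at 0.513 to PSMA7 at 422 CPM per kb in siNS.

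Promoters of 4 of the 7 genes called in a comparison below are shown, since these genes moved in different directions. They are the 250 bases before the start of each gene, taken from RefSeq (GRCh38.p14), 5′ to 3′ on the gene's strand. Of the 48 genes 42 had an entry, and PSMB7 had none. Capitals mark matches, on either strand, to the core of the antioxidant response element (TGACNNNGC), through which NFE2L1 drives proteasome genes, the CCAAT box (CCAAT), the GC box (GGGCGG) and an ETS site (CCGGAAG). In PSME4, GC boxes overlap each other and the ETS site. The RefSeq starts differ from the GENCODE gene bounds given with the results.
PSMD13 (chr11:236726-236975, plus strand): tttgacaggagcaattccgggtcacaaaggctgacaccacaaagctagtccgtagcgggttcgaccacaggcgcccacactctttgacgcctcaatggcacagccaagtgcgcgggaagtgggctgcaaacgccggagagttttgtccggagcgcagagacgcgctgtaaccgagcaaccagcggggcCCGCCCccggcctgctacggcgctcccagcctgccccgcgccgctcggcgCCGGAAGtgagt
PSMD2 (chr3:184298991-184299240, plus strand): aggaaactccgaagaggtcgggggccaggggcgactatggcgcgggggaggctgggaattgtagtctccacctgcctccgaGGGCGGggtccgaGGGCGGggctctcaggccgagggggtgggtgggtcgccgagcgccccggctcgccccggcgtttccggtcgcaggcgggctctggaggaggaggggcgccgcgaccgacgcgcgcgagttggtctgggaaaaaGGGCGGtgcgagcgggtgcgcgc
PSMD7 (chr16:74296564-74296813, plus strand): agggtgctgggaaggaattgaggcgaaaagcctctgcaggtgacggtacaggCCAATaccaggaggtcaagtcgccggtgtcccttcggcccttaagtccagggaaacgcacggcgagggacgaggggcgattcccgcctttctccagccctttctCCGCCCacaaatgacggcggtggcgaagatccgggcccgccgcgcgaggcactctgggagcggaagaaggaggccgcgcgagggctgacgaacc
PSME4 (chr2:53970994-53971243, minus strand): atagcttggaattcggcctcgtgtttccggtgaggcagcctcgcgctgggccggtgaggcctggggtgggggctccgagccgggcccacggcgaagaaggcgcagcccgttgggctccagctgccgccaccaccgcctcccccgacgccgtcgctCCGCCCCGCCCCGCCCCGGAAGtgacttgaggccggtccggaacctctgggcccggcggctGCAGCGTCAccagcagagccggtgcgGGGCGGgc
PSMD13, lower in siNFKB2, holds an ETS site 12 to 6 bases before its start and a GC box. PSMD2 holds 3 GC boxes and none of the other motifs, PSMD7 a CCAAT box and a GC box. PSME4 holds the response element core, 34 to 26 bases before its start on the opposite strand, with an ETS site and 4 GC boxes. Over the 42 promoters, the response element core was present in 11 (26.2%), against 11.03% of 27305 promoters of all genes. The CCAAT box was in 18 (42.9%, against 33.0%), the GC box in 26 (61.9%, against 42.3%) and the ETS site in 10 (23.8%, against 8.82%). The NF-kB consensus was in 0 of 42, against 5.05% of all promoters, which says only that its letters are not in these windows. The promoters of all genes were limited neither to genes tested here nor to a like base content, so the shares are not of like sets. These matches are descriptions of sequence and were not related to the fold changes by a test.

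The libraries numbered 1 differed from replicates 2 and 3 in many proteasome genes, in every group. In 15 of the 40 genes (37.5%) the library numbered 1 was the lowest of its group in all 3 groups, and in 4 (10.0%) it was the highest, where over all genes these shares were 19.9% and 23.7%. Among the lowest were PSMB10, PSMG3, PSMG4, PSMD4, PSMC5 and PSMA7, and the 4 highest were PSMD5, PSMD11, PSME3 and PSME4. PSMA7, for example, was at 0.819 of the mean of replicates 2 and 3 in siNFKB2, 0.868 in siRELB and 0.715 in siNS. For PSMG4 these ratios were 0.549 in siNFKB2, 0.7303 in siRELB and 0.447 in siNS. The share of mitochondrial rRNA, a sign of RNA quality or selection, was also lowest in these libraries, at 0.519, 1.01 and 2.68% in siNFKB2 replicates 1 to 3, 0.379, 0.653 and 0.856% in siRELB and 0.406, 1.33 and 0.6304% in siNS, and its part in the pattern was not tested.

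**Figure D2:**
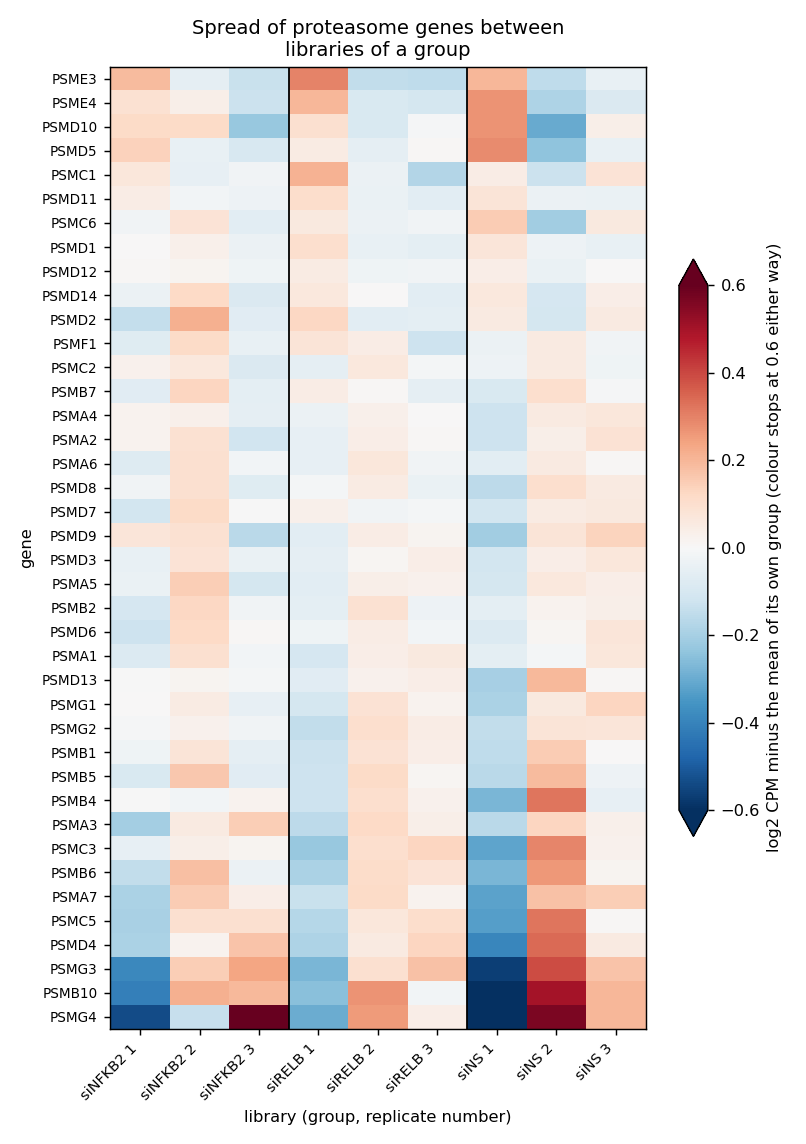
Deviation of each library (columns, by group and replicate number) from the mean of its own group for 40 proteasome genes (rows, ordered by their mean deviation in the libraries numbered 1), as log2 CPM. Red is above and blue below the group mean. The libraries numbered 1 share their colours at the bottom (PSMG4, PSMB10, PSMG3) and at the top (PSME3, PSME4).

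Depletion of NFKB2 was examined by setting siNFKB2 against siNS. Most proteasome genes did not pass the test. Of 40 tested, 2 rose (PSMD2 and PSMD7), 1 fell (PSMD13) and 37 were not called at an adjusted p below 0.05 in edgeR's quasi-likelihood test, adjusted by Benjamini-Hochberg across the 14815 genes tested. Every adjusted p of a gene below comes from that test unless DESeq2 is named. Of all genes, 26.1% were called, 12.6% higher and 13.5% lower, so the proteasome share of 7.5% was below the background. The median log2 fold change of the 40 genes was 0.02, beside -0.0037 over all genes. The median size of the change, whatever its direction, was 0.149 on the log2 scale for the 40 genes and 0.351 for all genes, and none of the 40 reached 1, as 11.3% of all genes did. In 7 of the 40 genes all siNFKB2 libraries were above all siNS libraries and in 7 below, where 18.8% and 18.6% of all genes were. The SE of the proteasome fold changes was 0.115 on the log2 scale in the median. All 3 called genes belong to the regulatory particle, in which 2 rose and 1 fell of 16 tested, while 0 of 14 core genes were called by edgeR (PSMB7 alone at an unadjusted p below 0.05 and by DESeq2). Whether core and regulatory particle differ was not tested. Without the 3 libraries numbered 1, which leaves 2 libraries a group, 6 of the 40 genes rose and 8 fell, PSMD2, PSMD7 and PSMD13 among them, where 44.9% of all genes were called.

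PSMD13, a lid subunit of the regulatory particle (chromosome 11, 236546 to 252984, plus strand, GRCh38), was at 159, 162 and 159 CPM in the siNFKB2 libraries, 201, 214 and 216 CPM in the siRELB libraries and 221, 289.6 and 254 CPM in the siNS libraries. All siNFKB2 libraries lay below all others and close together. It fell to 0.627 times its level in siNS (log2 fold change -0.67, SE 0.114, adjusted p = 0.00238), and the call held in all 17 alternative analyses, with adjusted p at most 0.0138. SIRT3 overlaps 6.63% of its exonic length on the opposite strand, and whether the counting used strand is not known here.

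PSMD2 (chromosome 3, 184298709 to 184309054, plus strand) had 1640.1, 2097 and 1725 CPM in the siNFKB2 libraries, 1204, 1058 and 1062 CPM in the siRELB libraries and 1397, 1248 and 1394 CPM in the siNS libraries. Every siNFKB2 library was above every siNS library, and every siRELB library was below them. It rose 1.35-fold in siNFKB2 (log2 fold change 0.44, SE 0.118, adjusted p = 0.0211). This call was lost without siNFKB2 replicate 2 (adjusted p = 0.0793), without siNS replicate 2 (0.062) and without siNS replicate 3 (0.0544), and on the 6 compared libraries alone (0.0582). Of the 50-base words of its longest coding transcript, 8.74% occur in transcripts of another gene.

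PSMD7, the lid partner of the deubiquitinase PSMD14 (chromosome 16, 74296775 to 74306288, plus strand), was at 206, 241 and 222 CPM in the siNFKB2 libraries, 168, 163 and 164 CPM in the siRELB libraries and 155, 174 and 175 CPM in the siNS libraries. The siNFKB2 libraries were above all others, and siRELB lay within the range of siNS. The rise was 1.33-fold (log2 fold change 0.41, SE 0.103, adjusted p = 0.0151), lost without siNFKB2 replicate 2 (adjusted p = 0.0542), on the 6 compared libraries alone (0.0562) and with no filter on low counts (0.0601). AC009120.2 lies over 30.7% of its exonic length on the opposite strand. Of the 8 lid genes, 1 rose, 1 fell and 6 were not called in siNFKB2 against siNS, where 26.1% of all genes were called. PSMD14 itself had a log2 fold change of 0.21 (adjusted p = 0.161), PSMD6 0.19 (0.202), PSMD12 0.15 (0.231), PSMD8 0.10 (0.526), PSMD3 0.03 (0.864) and PSMD11 -0.26 (0.0721). PSMD11 was called lower by DESeq2 and at a mean of at least 5 CPM, where 30% and 31.4% of all genes were called. It was also called with the replicate number as a block (40.1%) and without the 3 libraries numbered 1 (44.9%).

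**Figure D3:**
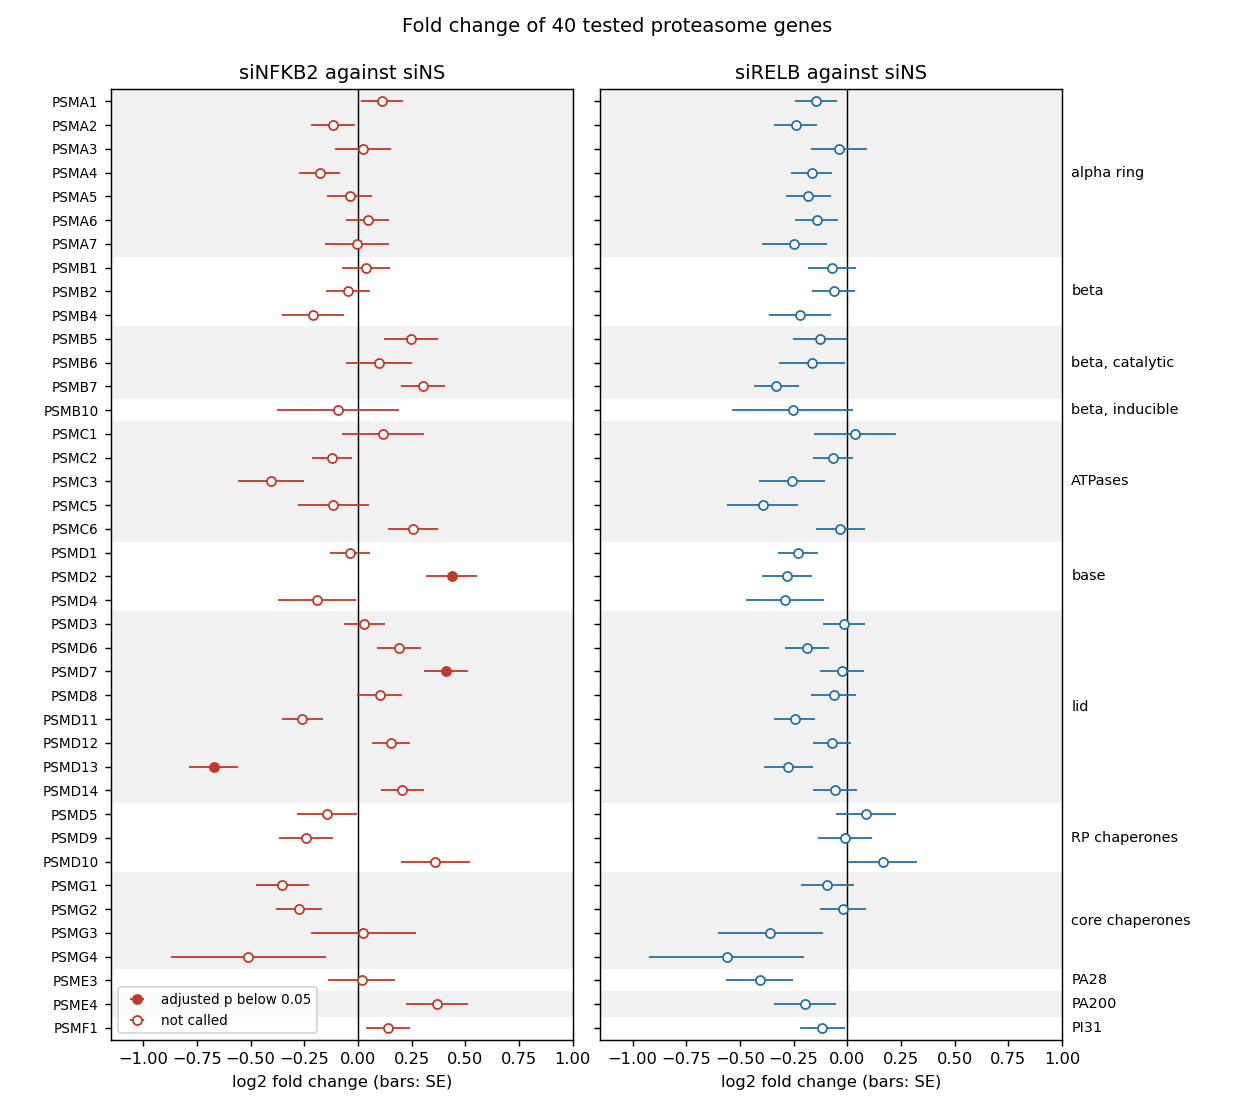
Log2 fold change (horizontal) of 40 proteasome genes (rows, by role) in siNFKB2 against siNS (left) and siRELB against siNS (right). Points are fitted values from 3 libraries per group, bars are SEs, and filled points have an adjusted p below 0.05. In siNFKB2 the points scatter on both sides of 0 and PSMD2, PSMD7 and PSMD13 are filled, and in siRELB 37 of 40 points lie below 0 with none filled.

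The core genes were close to their control levels in siNFKB2. The 7 alpha genes, which form the outer rings, had log2 fold changes between -0.18 (PSMA4) and 0.11 (PSMA1), with adjusted p of 0.196 or more. PSMA7 was at 642, 814 and 752 CPM in siNFKB2 and 583, 823 and 809 CPM in siNS, with overlapping groups. Of the noncatalytic beta genes, PSMB1 was at 0.04, PSMB2 at -0.05 and PSMB4 at -0.21 on the log2 scale of the fold change. Of the core genes PSMB7 was nearest to a call. PSMB7, which carries the trypsin-like activity, was at 238, 273 and 239.8 CPM in the siNFKB2 libraries, 166, 163 and 156 CPM in the siRELB libraries and 190.1, 217 and 202 CPM in the siNS libraries. Its siNFKB2 libraries were above and its siRELB libraries below all siNS libraries (log2 fold change 0.30, SE 0.103, adjusted p = 0.0542 in siNFKB2). The gene passed in siNFKB2 with DESeq2 (adjusted p = 0.00964), with DESeq2 size factors in edgeR (0.0468), at a mean of at least 5 CPM (0.0366) and without siNS replicate 2 (0.0489). It also passed with the replicate number as a block (0.0201) and without the 3 libraries numbered 1 (0.0356), where 40.1% and 44.9% of all genes were called. PSMB5, the chymotrypsin-like subunit, was at 287, 342 and 292 CPM in the siNFKB2 libraries, 217, 256 and 238 CPM in the siRELB libraries and 230.4, 293 and 252 CPM in the siNS libraries, a log2 fold change of 0.25 in siNFKB2 (adjusted p = 0.176). For PSMB6, the caspase-like subunit, these were 157, 197 and 169.7 CPM in the siNFKB2 libraries, 127, 156 and 154 CPM in the siRELB libraries and 133, 193 and 163 CPM in the siNS libraries (log2 0.10, adjusted p = 0.694). Groups overlapped for both genes in the comparison with siNS.

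PSMB10 was the inducible catalytic gene that could be measured. It was at 29.6, 45.8 and 45.1 CPM in the siNFKB2 libraries, 29.8, 42.7 and 35.1 CPM in the siRELB libraries and 24.9, 57.1 and 46.4 CPM in the siNS libraries, and the 3 groups overlapped. In each group the library numbered 1 was the lowest. The log2 fold change was -0.09 in siNFKB2 (adjusted p = 0.853) and -0.26 in siRELB (0.698). The count of PSMB10 for each count of PSMB7 in the same library, which is free of library size, was 0.124, 0.168 and 0.188 in siNFKB2, 0.179, 0.263 and 0.225 in siRELB and 0.131, 0.263 and 0.2298 in siNS. The mean log2 ratio differed by -0.34 between siNFKB2 and siNS (two-sided exact permutation p = 0.4, n = 3 each), by 0.14 between siRELB and siNS (p = 0.9) and by -0.48 between siNFKB2 and siRELB (p = 0.2). Among these 3 comparisons of a single ratio, all exact permutation tests, adjusted p by Benjamini-Hochberg was 0.6 at the least, and 3 libraries a group cannot give p below 0.1. With 1 library left out, the difference between siNFKB2 and siNS lay between -0.64 (without siNS replicate 1) and -0.14 (without siNS replicate 2). That between siNFKB2 and siRELB lay between -0.63 (without siRELB replicate 1) and -0.31 (without siNFKB2 replicate 1). Between siRELB and siNS it lay between -0.16, with the sign turned, without siNS replicate 1, and 0.34 without siNS replicate 2. AC040162.1 covers 34.8% of the exonic length of PSMB10 on the same strand, so its count is uncertain. TAP1 and TAP2, neighbours of PSMB8 and PSMB9 that carry antigen peptides, have 7 further placements each and were also listed at 0. The interferon-responsive factor IRF1 and the regulator NLRC5 were not called in either knockdown (adjusted p = 0.734 for IRF1 and 0.0728 for NLRC5 in siNFKB2, and 0.397 for IRF1 and 0.944 for NLRC5 in siRELB).

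In the main analysis the ATPases, base scaffolds and chaperones gave no call besides PSMD2 in siNFKB2. PSMC3, an ATPase, was at 436, 462 and 456 CPM in siNFKB2 and 473, 721 and 599.6 CPM in siNS, with all siNFKB2 libraries below siNS (log2 fold change -0.41, SE 0.155, adjusted p = 0.0795). PSMC6, another ATPase, was on the other side at log2 0.26 (adjusted p = 0.128), and PSMC2 (-0.12) and PSMC5 (-0.11) lay between. PSMC3 was called lower without siNS replicate 1, where 32.3% of all genes were called, and with the replicate number as a block (40.1%). Without the 3 libraries numbered 1 (44.9%) PSMC3 was called lower and PSMC6 higher. The base scaffold PSMD1 (-0.04) and the ubiquitin receptor PSMD4 (-0.19) had adjusted p of 0.816 and 0.477. The chaperone pair of the alpha ring lay below its control levels without passing the test. PSMG1 was at 31.7, 32.7 and 30.6 CPM in the siNFKB2 libraries, 35.2, 40.2 and 38.4 CPM in the siRELB libraries and 35.3, 42.02 and 44.1 CPM in the siNS libraries. PSMG2 was at 257, 263 and 254 CPM in the siNFKB2 libraries, 277, 329.6 and 316 CPM in the siRELB libraries and 281, 329 and 327 CPM in the siNS libraries. In both genes every siNFKB2 library was below every other library, with log2 fold changes against siNS of -0.35 (adjusted p = 0.0583) and -0.27 (0.0874). DESeq2 called both lower (adjusted p = 0.0239 and 0.0474), as did edgeR without siNS replicate 1 (0.0143 and 0.0303). Both also passed with the replicate number as a block (0.0242 and 0.0327) and without the 3 libraries numbered 1 (0.00493 and 0.01). In these settings 40.1% and 44.9% of all genes were called. PSMG1 passed at a mean of at least 5 CPM as well (0.0451).

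The second chaperone pair, PSMG3 and PSMG4, was dominated by spread between libraries. PSMG3 was at 74.5, 108 and 115 CPM in the siNFKB2 libraries, 62.2, 80.6 and 85.02 CPM in the siRELB libraries and 63.4, 123 and 106 CPM in the siNS libraries. PSMG4 was at 10.6, 14.04 and 24.7 CPM in the siNFKB2 libraries, 12.7, 18.7 and 16.1 CPM in the siRELB libraries and 12.8, 32.3 and 25.1 CPM in the siNS libraries. The library numbered 1 was the lowest of its group in all 6 cases, and the groups overlapped. The SE of the fold change in siNFKB2 against siNS was 0.245 for PSMG3 and 0.3598 for PSMG4 on the log2 scale, wider than the median of the 40 genes, with log2 fold changes of 0.02 and -0.51 (adjusted p = 0.955 and 0.331). Of the chaperones of the ATPase ring, PSMD10 was at 64.6, 64.6 and 50.95 CPM in the siNFKB2 libraries, 56.04, 49.2 and 52.2 CPM in the siRELB libraries and 55.7, 37.5 and 47.3 CPM in the siNS libraries (log2 0.36 in siNFKB2, adjusted p = 0.127). PSMD9 was at 67.8, 68.6 and 57.6 CPM in the siNFKB2 libraries, 72.6, 78.4 and 76.9 CPM in the siRELB libraries and 65.9, 80.5 and 83.5 CPM in the siNS libraries (-0.24, adjusted p = 0.184). PSMD5 was at 90.5, 79.6 and 76.8 CPM in the siNFKB2 libraries, 100.04, 92.9 and 96.9 CPM in the siRELB libraries and 109.6, 76.1 and 87.2 CPM in the siNS libraries (-0.14, adjusted p = 0.496). Without siNS replicate 1, PSMD10 was called higher and PSMD9 lower in siNFKB2 against siNS (adjusted p = 0.0296 and 0.0449). Both were also called without the 3 libraries numbered 1 (0.0233 and 0.0131), and PSMD10 with the replicate number as a block (0.041). Of all genes, 32.3%, 44.9% and 40.1% were called in these settings. In siRELB, PSMD10, PSMD9 and PSMD5 had adjusted p of 0.653, 0.974 and 0.804.

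Of the alternative caps, PSME4, which forms a nuclear activator tied to histone breakdown, was at 386, 371 and 331 CPM in the siNFKB2 libraries, 279.8, 229 and 226 CPM in the siRELB libraries and 336, 245 and 262 CPM in the siNS libraries. Its siNFKB2 libraries overlapped siNS only through siNS replicate 1, and it was not called against siNS (log2 0.37, adjusted p = 0.0848). Without siNS replicate 1 it was (0.0123). PSME3, a nuclear activator of the core, was at 288, 244 and 230.4 CPM in the siNFKB2 libraries, 230.3, 169 and 168 CPM in the siRELB libraries and 286, 225 and 242 CPM in the siNS libraries. It was lower in siRELB replicates 2 and 3 than in any other library, but replicate 1 lay within the range of siNS (log2 -0.41, adjusted p = 0.226 in siRELB). PSME3 was called lower in siRELB with the replicate number as a block (0.0148) and without the 3 libraries numbered 1 (0.00516). In these settings 10.6% and 22.7% of all genes were called. PSMF1, named as an inhibitor of the core, was at 181, 206 and 185 CPM in the siNFKB2 libraries, 168, 164 and 146 CPM in the siRELB libraries and 169, 179.8 and 171 CPM in the siNS libraries. The 3 groups of PSMF1 did not overlap, and the differences from siNS were small (log2 0.14 in siNFKB2 and -0.12 in siRELB, adjusted p = 0.361 and 0.616).

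Depletion of RELB, examined by setting siRELB against siNS, gave no proteasome gene called by edgeR. The count was 0 of 40, with a smallest adjusted p of 0.142 for PSMB7, where 2.02% of all genes were called, 1.21% higher and 0.81% lower. At an unadjusted p below 0.05, 8 of the 40 genes were lower and 0 higher, beside 1187 lower and 1305 higher of 14815, and DESeq2 called PSMB7 lower (adjusted p = 0.021). The fold changes were small but lay mostly on the same side. Of the 40 genes 37 had a negative log2 fold change (92.5%), as did 52.0% of all genes, with a median of -0.16 beside -0.02 over all genes. In 12 genes every siRELB library was below every siNS library and in 0 above, where 10.2% of all genes were below and 12.3% above (22.5% in either direction). They were PSMA1, PSMA2, PSMA4, PSMA5, PSMA6, PSMB7, PSMD1, PSMD2, PSMD6, PSMD11, PSMD13 and PSMF1. The summed level of the 48 genes was 9712, 10157 and 9938 CPM in siRELB and 10510.2, 11781 and 11464 CPM in siNS, which did not overlap. It was 11038, 12391 and 11326 CPM in siNFKB2, which overlapped siNS. Without the 3 libraries numbered 1, 0 rose and 9 fell, where 22.7% of all genes were called. They were PSMA7, PSMB7, PSMB10, PSMC5, PSMD4, PSMD13, PSME3, PSMG3 and PSMG4, of which PSMA7, PSMB10, PSMC5, PSMD4, PSMG3 and PSMG4 are among those lowest in every library numbered 1. The genes share libraries and scaling, so they are not independent, and no test was made of the list. The largest changes by size were PSMG4 (-0.56), PSME3 (-0.41), PSMC5 (-0.39), PSMG3 (-0.36) and PSMB7 (-0.33) on the log2 scale, and the 3 genes above 0 were PSMC1, PSMD5 and PSMD10.

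Between the knockdowns, in siNFKB2 against siRELB, 6 of 40 were higher (PSMB5, PSMB7, PSMD2, PSMD6, PSMD7 and PSME4), 1 was lower (PSMD13) and 33 were not called, with 26.6% of all genes called and 17.5% of the 40. All siNFKB2 libraries were above all siRELB libraries in 16 genes and below in 5, where 22.3% and 23.6% of all genes were. The median log2 fold change was 0.16, beside 0.02 over all genes. The libraries already given for PSMD2 and PSMB7 show the widest gaps. PSMD2 was 1.64-fold higher in siNFKB2 than in siRELB (log2 fold change 0.72, SE 0.118, adjusted p = 0.00199), and PSMB7 1.55-fold (log2 fold change 0.63, SE 0.104, adjusted p = 0.00194). Both calls held in all 17 alternatives. PSMD7 (log2 0.44, adjusted p = 0.0113) was lost without siRELB replicate 2 (0.0552) or 3 (0.0532). PSME4 (0.57, adjusted p = 0.0163) was lost without siNFKB2 replicate 2 (0.0603) and without siRELB replicate 2 (0.075) or 3 (0.0744). PSMD6, a lid subunit at 143, 169 and 157 CPM in the siNFKB2 libraries, 118, 124 and 119 CPM in the siRELB libraries and 129, 138 and 144 CPM in the siNS libraries, was higher at log2 0.38 (adjusted p = 0.0221). It lost its call with no filter on low counts (0.0866), without siNFKB2 replicate 2 (0.0803) or 3 (0.0601), and without siRELB replicate 1 (0.0694), 2 (0.068) or 3 (0.0876). PSMB5 was at the threshold (log2 0.38, adjusted p = 0.0498) and lost its call with no filter on low counts and without any of 6 single libraries, with adjusted p from 0.0593 without siNS replicate 3 to 0.157 without siRELB replicate 1. The fall of PSMD13 against siRELB (log2 -0.40, adjusted p = 0.027) was lost without siNFKB2 replicate 2 (0.0751) or 3 (0.0688) and without siRELB replicate 2 (0.0913) or 3 (0.0953). Whether the replicate numbers pair siNFKB2 with siRELB libraries is not settled. The deviations from group means correlated over all genes at 0.535 for the libraries numbered 1 and 0.171 for those numbered 2. The differently numbered siNFKB2 replicate 3 and siRELB replicate 2 correlated at 0.258. With the replicate number as a block, 14 genes were higher and 2 lower, where 40.9% of all genes were called. The higher ones were the 6 named above with PSMA1, PSMB6, PSMC5, PSMC6, PSMD14, PSME3, PSMF1 and PSMG3, and the lower ones PSMD13 and PSMG2. Among those gained, the blocked adjusted p was 0.00265 for PSME3, 0.0227 for PSMG3, 0.0428 for PSMB6, 0.0429 for PSMF1 and 0.0453 for PSMG2. Without the 3 libraries numbered 1, 13 were higher and 5 lower, where 44.1% of all genes were called. Since this comparison shares its libraries with those above, its calls are not separate evidence.

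**Figure D4:**
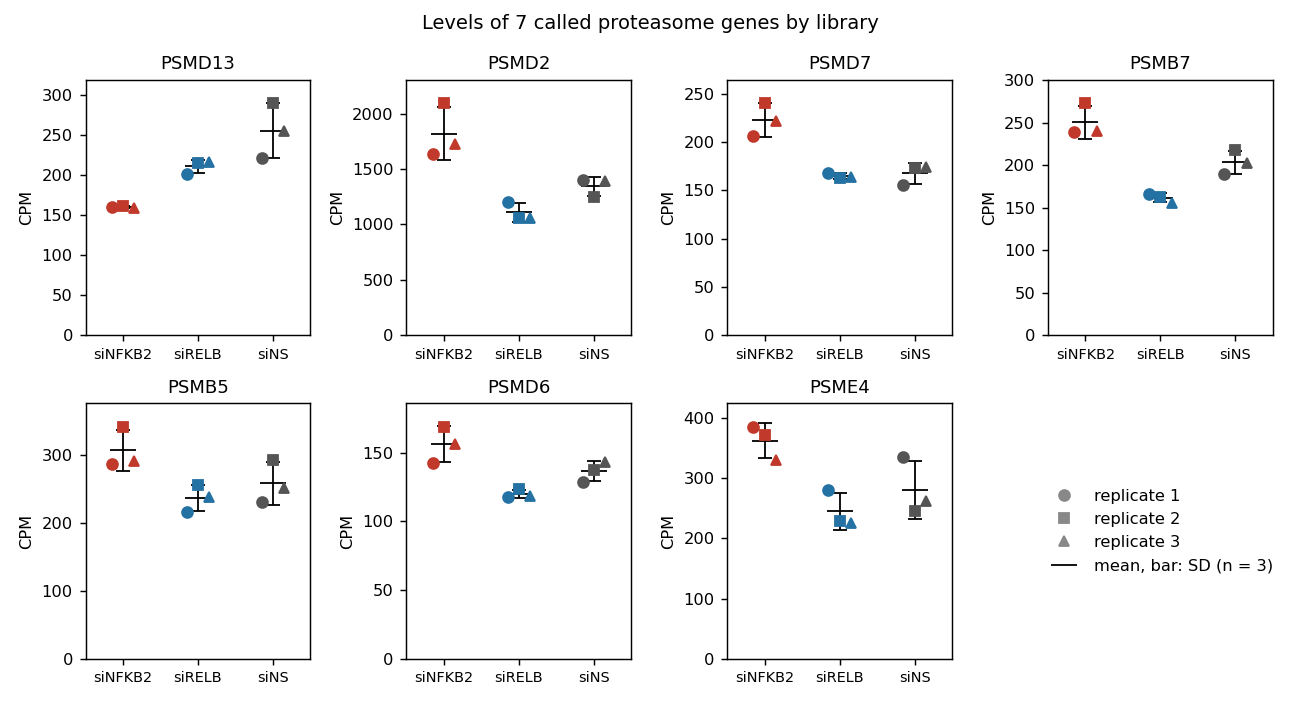
CPM (vertical, from 0) of the 7 proteasome genes called in a comparison, in siNFKB2, siRELB and siNS. Each symbol is a library (circle, square and triangle for replicates 1 to 3), dashes are means and bars SDs (n = 3). The siNFKB2 libraries of PSMD13 lie at 159, 162 and 159 CPM, below all others, and those of PSMD2, PSMD7 and PSMB7 lie above all others.

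Partners of the proteasome outside the family were taken from a list of 24 assembly factors, receptors, shuttles and regulators, all of which were tested. In siNFKB2 against siNS, 3 rose and 2 fell, where 26.1% of all genes were called, and 8 rose and 2 fell without the 3 libraries numbered 1, where 44.9% were. ZFAND5, which binds and activates the proteasome, was at 188, 221 and 223 CPM in the siNFKB2 libraries, 155, 154 and 147 CPM in the siRELB libraries and 153, 119 and 129 CPM in the siNS libraries (log2 fold change 0.66, SE 0.122, adjusted p = 0.00372). Its siNFKB2 libraries were above all others, and its call held in all 17 alternatives. DDI2, the protease that releases the transcription factor NFE2L1, was at 85.9, 77.5 and 71.2 CPM in the siNFKB2 libraries, 53.2, 36.5 and 38.9 CPM in the siRELB libraries and 61.8, 41.4 and 46.6 CPM in the siNS libraries (log2 fold change 0.65, SE 0.185, adjusted p = 0.027). The siNFKB2 libraries of DDI2 were above all others too, but the call was lost without siNS replicate 2 (adjusted p = 0.0872) or 3 (0.104) and without siNFKB2 replicate 1 (0.0668), 2 (0.0802) or 3 (0.0527). NFE2L1 itself had a log2 fold change of 0.02 (adjusted p = 0.914). UBLCP1, a phosphatase of the proteasome, rose at log2 0.53 (adjusted p = 0.0373), and lost the call without any of 7 single libraries, with adjusted p from 0.0556 without siRELB replicate 2 to 0.11 without siNFKB2 replicate 2. Fitted on the 6 compared libraries alone, its adjusted p was 0.0613. PAAF1, a chaperone of the ATPase ring, fell (log2 -0.44, adjusted p = 0.0163), a call lost without siNS replicate 3 (0.0709), siNFKB2 replicate 2 (0.0526) or siNFKB2 replicate 3 (0.0615). It was about as low in siRELB, with every siRELB library below every siNS library (log2 -0.42, adjusted p = 0.0945). Between siNFKB2 and siRELB its log2 fold change was -0.02 (adjusted p = 0.916).

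In siRELB edgeR called 0 of the 24 partners, where 2.02% of all genes were called. At an unadjusted p below 0.05, 2 partners were lower, beside 1187 of all 14815 genes. DESeq2 called 2 partners lower, where it called 5.91% of all genes. With edgeR 3 partners were lower without siNS replicate 1 (12% of all genes called) and 3 without the 3 libraries numbered 1 (22.7%). In siNFKB2 against siRELB, 4 partners were higher and 1 lower, where 26.6% of all genes were called. The counts were 9 and 2 without the 3 libraries numbered 1 (44.1%), and 8 and 2 with the replicate number as a block (40.9%). The higher ones were DDI2 (log2 0.87, adjusted p = 0.00746), UBE3C, a ligase that extends ubiquitin chains at the proteasome (0.73, 0.0137), ZFAND5 (0.47, 0.0175) and NGLY1, which edits NFE2L1 by removing its sugars (0.41, 0.0209). The shuttle UBQLN4 was lower (-0.34, 0.0318). Without siRELB replicate 2, siRELB replicate 3 or siNFKB2 replicate 2, the calls of UBE3C, ZFAND5, NGLY1 and UBQLN4 were lost in each case, with adjusted p of 0.0564 to 0.127, and that of DDI2 held (adjusted p at most 0.0405 over 17 alternatives).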

How the data were processed

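The authors deposited 1 table of whole-number counts per gene symbol for each of 9 polyadenylated RNA libraries, not normalized. Per the submitters' processing notes, the tools were Trimmomatic 0.38, STAR 2.7.1a and Subread 1.6.4 and the build GRCh38.p13, with roles, annotation and strand setting not given in the sources used here. Groups and replicate numbers come from the labels. Genes were kept by filterByExpr (edgeR 4.0.16, R 4.3.3) and scaled by TMM. All 9 libraries entered 1 edgeR model of 3 groups, tested by its quasi-likelihood method, with p-values adjusted by Benjamini-Hochberg across 14815 genes and calls at an adjusted p below 0.05. SEs were taken as the size of the log2 fold change over the root of the F statistic. The fit was tested on simulated data. The p-values rest on differences among these libraries alone, possibly technical ones, and no 2 libraries of a group were alike within counting noise. The members, the lists and the tests were chosen with earlier results of these data known. Genes named with values per library were, by rule, called members, catalytic subunits, caps and chaperones, and PSMA7 and PSMC3 were added after their values were seen. For called partners the rule asked for names only, and values per library are given for ZFAND5 and DDI2 alone. Ratios for PSMB8 and PSMB9 were planned and not computed, as both are listed at 0. Alternatives were DESeq2 1.42.0, its size factors in edgeR, no filter, a mean of at least 5 CPM, summed placements, the 6 libraries compared, each library left out, a replicate block, and no libraries numbered 1. A few genes of the marker, partner and inducer lists are counted in those lists and not reported here by name. Deviations from group means of same-numbered siNFKB2 and siRELB libraries correlated over all genes at 0.535, 0.171 and 0.45 for numbers 1 to 3. Of the differently numbered pairs, siNFKB2 replicate 3 with siRELB replicate 2 reached 0.258, above the pair numbered 2, and the rest were negative. Whether the numbers pair these groups is thus not settled, and the blocked counts stand beside the unblocked ones. For the comparisons with siNS not every pair correlated above 0.1.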

Additional observations from a re-analysis of the deposited data

How the results depend on the processing

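The median log2 fold change of the 40 genes moved by less than the spread between libraries under all 17 alternatives, between -0.03 and 0.07 in siNFKB2, -0.19 and -0.12 in siRELB, and 0.14 and 0.20 between siNFKB2 and siRELB. Counts of called members depended more on the setting. With 1 library left out, 0 to 4 members were higher and 1 to 5 lower in siNFKB2 (4 and 5 without siNS replicate 1, 1 higher without siNS replicate 3, 0 higher without siNFKB2 replicate 2). In siRELB 0 to 3 members were lower with 1 library left out (3 without siNS replicate 1, where 12% of all genes were called). Between siNFKB2 and siRELB, 2 to 7 members were then higher and 0 to 1 lower. There were 2 higher without siRELB replicate 2 or 3 and 3 higher without siNFKB2 replicate 2. There were 0 lower without siNFKB2 replicate 2 or 3 or siRELB replicate 2 or 3. Of all genes, 15.2% were called without siRELB replicate 2 and 15.4% without siRELB replicate 3. Without siNFKB2 replicate 2 or 3 these shares were 14.4% and 17.1%. DESeq2 called 4 lower in siNFKB2, 1 lower in siRELB and 10 higher between siNFKB2 and siRELB. It called 30% of all genes in siNFKB2, 5.91% in siRELB and 30.7% between siNFKB2 and siRELB. In siNFKB2, 1 was higher with no filter, 3 were lower at a mean of at least 5 CPM, and 0 were higher with only the 6 libraries compared. In these settings 14.3%, 31.4% and 18.5% of all genes were called. Without the 3 libraries numbered 1, the counts were 6 higher and 8 lower in siNFKB2, 9 lower in siRELB, and 13 higher and 5 lower between siNFKB2 and siRELB. The shares of all genes called were 44.9%, 22.7% and 44.1% in that order. With the replicate number as a block the member counts were 6 higher and 5 lower in siNFKB2 and 3 lower in siRELB. They were 14 higher and 2 lower between siNFKB2 and siRELB. The block called 40.1%, 10.6% and 40.9% of all genes in these comparisons. Whether the numbers pair siNFKB2 or siRELB libraries with those of siNS is not settled either. Deviations from group means of same-numbered siNFKB2 and siNS libraries correlated over all genes at 0.585, 0.0545 and 0.0914 for numbers 1 to 3. Those of siRELB and siNS correlated at 0.594, 0.376 and 0.0439. Among differently numbered pairs, siNS replicate 2 reached 0.569 with siNFKB2 replicate 3 and 0.426 with siRELB replicate 3. The block changed partner counts to 5 higher and 2 lower in siNFKB2 (40.1% of all genes called) and 2 lower in siRELB (10.6%). The cause of these shifts was not tested. Signs turned in fold changes that were not called in the main analysis. With 1 library left out, log2 fold changes in siNFKB2 ranged from -0.37 to 0.18 for PSMB10, -0.0315 to 0.24 for PSMB6, -0.26 to 0.0108 for PSMD5, -0.0846 to 0.12 for PSME3 and -0.21 to 0.23 for PSMG3. PSME3 was also at -0.00988 with no filter, and PSMG3 at -0.0399 without the libraries numbered 1. In siRELB they ranged from -0.0412 to 0.24 for PSMD5, -0.11 to 0.0587 for PSMD9 and -0.0909 to 0.0481 for PSMG2, and between siNFKB2 and siRELB from -0.35 to 0.29 for PSMG4. The PSMB10 to PSMB7 ratio of siRELB to siNS ranged from -0.16 to 0.34, below 0 without siNS replicate 1. Genes listed at 0 and the low counts of PSMC1 limit what these tables can say of single subunits.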
